A study of Mus musculus with 15 samples.

Results

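Vasopressin and oxytocin receptors and peptides were followed here through 5 genes: the receptor genes Avpr1a, Avpr1b and Oxtr and the peptide genes Avp and Oxt. They were taken by name from the array annotation, with the brightest probe set of 1 gene symbol for each gene. Each of the 5 had exactly 1 such probe set, out of 19938 genes measured in all. The right hippocampus of 15 male C57BL/6 pups was read on postnatal day 9 on Affymetrix Mouse Gene 1.0 ST arrays, whose probes are spread over a gene's exons. The pups belonged to 5 groups of 3: severe stress with morphine (SSM), severe stress with saline vehicle (SSS), mild stress with morphine (MSM), mild stress with saline vehicle (MSS) and untreated controls (CC). Morphine is an opioid receptor agonist. The conditions ran from postnatal day 5 to day 9, with birth counted as day 1 and litters held to at most 7 pups per dam. The sources used here do not give what each stress consisted of, the morphine dose or the litter of each pup. The p-values therefore measure only the spread between these samples, and 3 arrays per group limit the precision. Sample titles carry a number after SS, of unstated meaning: 9 in SSM replicates 2 and 3, 10 in SSS replicates 1 and 2, 8 in SSM replicate 1 and SSS replicate 3, 11 in the MSM and MSS arrays and 12 in the CC arrays. Between severe and mild stress, and between treated groups and CC, that number and the group cannot be told apart. Between SSM and SSS they can be told apart only through SSM replicate 1 and SSS replicate 3, which share the number 8.

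Vasopressin and oxytocin are closely related peptides made mainly by hypothalamic neurons, which cut them from larger precursors encoded by Avp and Oxt. They act on G protein-coupled receptors: V1a (Avpr1a), V1b (Avpr1b) and the oxytocin receptor (Oxtr) signal mainly through Gq and phospholipase C, while the V2 receptor (Avpr2) acts in the kidney through cyclic AMP. In the rodent hippocampus Avpr1b is known as a marker of CA2 pyramidal neurons, and Oxtr is found in CA2 and CA3 pyramidal neurons and in interneurons. The peptides themselves reach the hippocampus chiefly through fibres from elsewhere. Avp and Oxt stand next to each other in the RefSeq gene table of mouse assembly GRCm38.p6.

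All values are log2 intensities as the authors deposited them, so a difference of 1 is a doubling. None of the 5 genes passed the test in any comparison. In limma, which fits every gene with a mean per group and a shared estimate of its spread, 0 of 5 passed the test over the 5 groups at an adjusted p under 0.05, against 0% of all genes. An unadjusted p under 0.05 in that test was reached by 7.24% of all genes and by 0 of the 5. Their unadjusted p-values were 0.102 for Avpr1a, 0.156 for Oxtr, 0.816 for Oxt, 0.911 for Avpr1b and 0.968 for Avp. In the 12 comparisons between groups, 0 of the 60 member tests passed (smallest limma adjusted p = 0.377). Over all genes 0.01% passed in severe against mild stress averaged over drug, and 0% in each of the other 11 comparisons.

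Without adjustment, 3 of the 60 member tests had a limma p under 0.05. They were Avpr1a in MSM against MSS (2.57% of all genes), Avpr1a in morphine against saline averaged over stress (7.64%), and Oxtr in SSM against CC (9.01%). In the other comparisons 0 of 5 members reached that level. Among all genes the share was 1.86% for the treated groups together against CC, 2.03% for SSS against CC, 2.22% for MSS against CC and 2.76% for MSM against CC. It was 2.85% for SSS against MSS, 3.65% for the interaction of morphine and severity, 9.37% for SSM against SSS, 12.1% for severe against mild stress averaged over drug and 14.3% for SSM against MSM. Arrays of 1 group lay wholly above or below those of the other for 1 member in each of 4 pairs of groups, given with Avpr1a and Oxtr. In the other 6 pairs 0 of 5 members were so separated, against 7.35% of all genes in MSM and MSS, 7.84% in MSM and CC, 9.36% in SSS and CC, 9.41% in MSS and CC, 10.9% in SSS and MSS and 11.9% in SSM and CC.

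**Figure D1:**
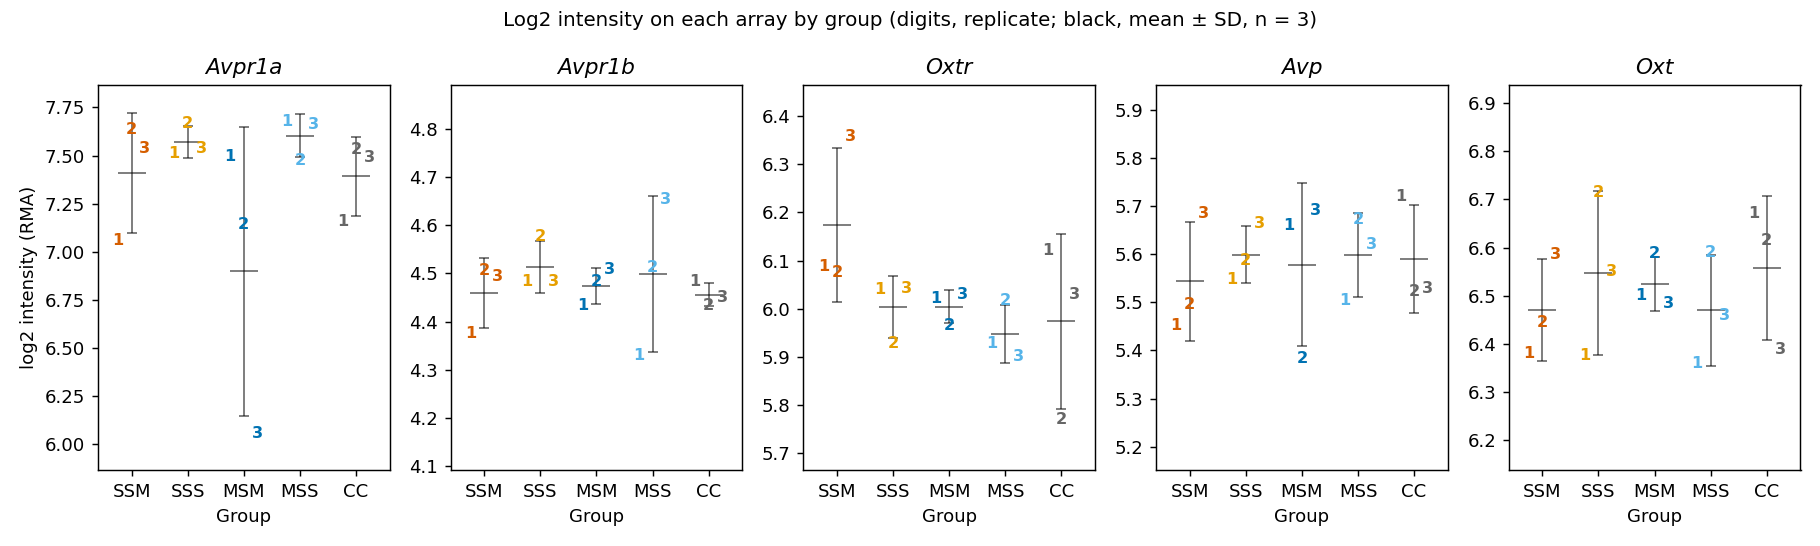
Log2 intensity (RMA) of the 5 genes on each of the 15 arrays, by group; digits are replicate numbers, and black bars are group means with SD (n = 3). The vertical scale of the Avpr1a panel is wider than that of the other panels. Avpr1a drops to 6.06 on MSM replicate 3, and the 3 SSM arrays of Oxtr lie between 6.08 and 6.36.

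Avpr1a encodes the V1a receptor, the main vasopressin receptor of the forebrain. Its level was 7.06, 7.64 and 7.54 in SSM replicates 1 to 3, 7.51, 7.67 and 7.54 in SSS, 7.50, 7.14 and 6.06 in MSM, 7.67, 7.47 and 7.66 in MSS, and 7.16, 7.53 and 7.49 in CC. A single array, MSM replicate 3, was far below the rest. SSM replicate 1, MSM replicate 2 and CC replicate 1 were also low, while the other 11 arrays lay within 7.47 to 7.67. Group means were 7.41 ± 0.31 in SSM, 7.57 ± 0.084 in SSS, 6.90 ± 0.75 in MSM, 7.60 ± 0.11 in MSS and 7.39 ± 0.20 in CC (SD, n = 3 each). From high to low the order was MSS, SSS, SSM, CC and MSM. Neighbours in that order overlapped, and of all 10 pairs of groups only MSM and SSS did not overlap, with MSM lower. In that pair the arrays of 10.7% of all genes did not overlap.

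The difference in Avpr1a between MSM and MSS was -0.70 (SE 0.26, 95% interval -1.26 to -0.15, unadjusted p = 0.0164, limma adjusted p = 1.00). Averaged over both stress levels, morphine minus saline was -0.43 (SE 0.18, unadjusted p = 0.0331, limma adjusted p = 0.649). An exact two-sided permutation of the arrays within each stress level gave p = 0.065 for that difference (0.325 after adjustment over the 15 such tests of the 5 genes). Severe stress minus mild stress was 0.51 with morphine (SSM against MSM, SE 0.26, adjusted p = 0.377) and -0.03 with saline (SSS against MSS, SE 0.26, adjusted p = 1.00). The interaction of morphine and severity, which tests whether these 2 differences are unequal, was 0.54 (SE 0.37, adjusted p = 0.959).

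Their size depended on MSM replicate 3. Without that array the difference between MSM and MSS was -0.28 (SE 0.16, unadjusted p = 0.0922), morphine minus saline was -0.22 (SE 0.11, unadjusted p = 0.0534), and the difference between SSM and MSM was 0.09 (SE 0.16), all from limma. Without SSM replicate 1 as well, the difference between MSM and MSS was again -0.28 with a smaller error (SE 0.12, limma unadjusted p = 0.0318, adjusted p = 1.00). Morphine minus saline was then -0.13 (SE 0.084, limma unadjusted p = 0.134). The spread of Avpr1a within groups was 0.38 with every array, which 98.8% of genes did not exceed. Without those 2 arrays it was 0.15. They hold the 2 lowest Avpr1a values, so the smaller spread and errors follow from the choice of arrays. SSM replicate 1 is in neither MSM nor MSS, so leaving it out changed only the error of that difference.

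The 4 arrays with low Avpr1a also had high levels of genes known from the striatum or the thalamus, which lie near the hippocampus. The mean of 8 oligodendrocyte genes was highest in these 4 arrays too. It was 8.35 in SSM replicate 1, 8.19 in MSM replicate 3, 7.67 in CC replicate 1 and 7.64 in MSM replicate 2. MSS replicate 3 came next at 7.54. Of 9 measured striatum genes 9 were highest in SSM replicate 1, 8 came next after it in CC replicate 1, and 7 ranked after both in MSM replicate 2. The mean of the striatum genes was 9.33 in SSM replicate 1, 8.13 in CC replicate 1 and 7.61 in MSM replicate 2, and 6.48 to 7.05 in the other 12 arrays. By group it ran from 6.62 to 9.33 in SSM, 6.49 to 6.58 in SSS, 6.58 to 7.61 in MSM, 6.48 to 7.05 in MSS and 6.60 to 8.13 in CC. The enkephalin precursor Penk was 11.40, 10.08 and 9.30 in SSM replicate 1, CC replicate 1 and MSM replicate 2, and the dopamine receptor gene Drd1 was 9.72, 7.97 and 7.56 there.

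In MSM replicate 3 it was most of the thalamus genes that were high: 7 of 9 measured peaked there. Prkcd went the other way and was at its lowest there, at 7.42, and Cbln1 was highest in SSS replicate 1. The mean of the 9 was 8.43, against 6.85 to 7.26 in the other 14 arrays. By group it ran from 6.85 to 7.16 in SSM, 6.95 to 7.06 in SSS, 6.89 to 8.43 in MSM, 6.93 to 7.26 in MSS and 6.98 to 7.09 in CC. Tcf7l2, a transcription factor of thalamic neurons, was 9.85 in that array. MSS replicate 3, with the next highest thalamus mean of 7.26 and Tcf7l2 at 7.53, had Avpr1a at 7.66, among the higher values. The mean of 8 glutamatergic neuron genes was 8.51 in MSM replicate 3 and 9.26 in SSM replicate 1, and 9.45 to 9.72 elsewhere. In MSM replicate 3, 7 of the 8 were at their lowest. The list was mixed in SSM replicate 1: Bcl11b (9.38) and Calb1 (8.74) were at their highest there, and 1 gene was at its lowest. Ttr, made by the choroid plexus, was 12.65 to 13.24 in the 4 arrays with low Avpr1a and as high in 8 others. In such bulk samples fewer cells of a type and less RNA per cell cannot be told apart, and the part of neighbouring tissue in the Avpr1a differences was not tested. Leaving out the 4 arrays with the highest striatum or thalamus genes takes out the 4 lowest Avpr1a values as well, so that smaller differences follow from the choice of arrays. Without them Avpr1a differed by -0.11 between MSM and MSS (SE 0.10) and by -0.05 between morphine and saline (SE 0.065). MSM then had a single array, which was assumed to vary like the arrays of the other groups.

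**Figure D2:**
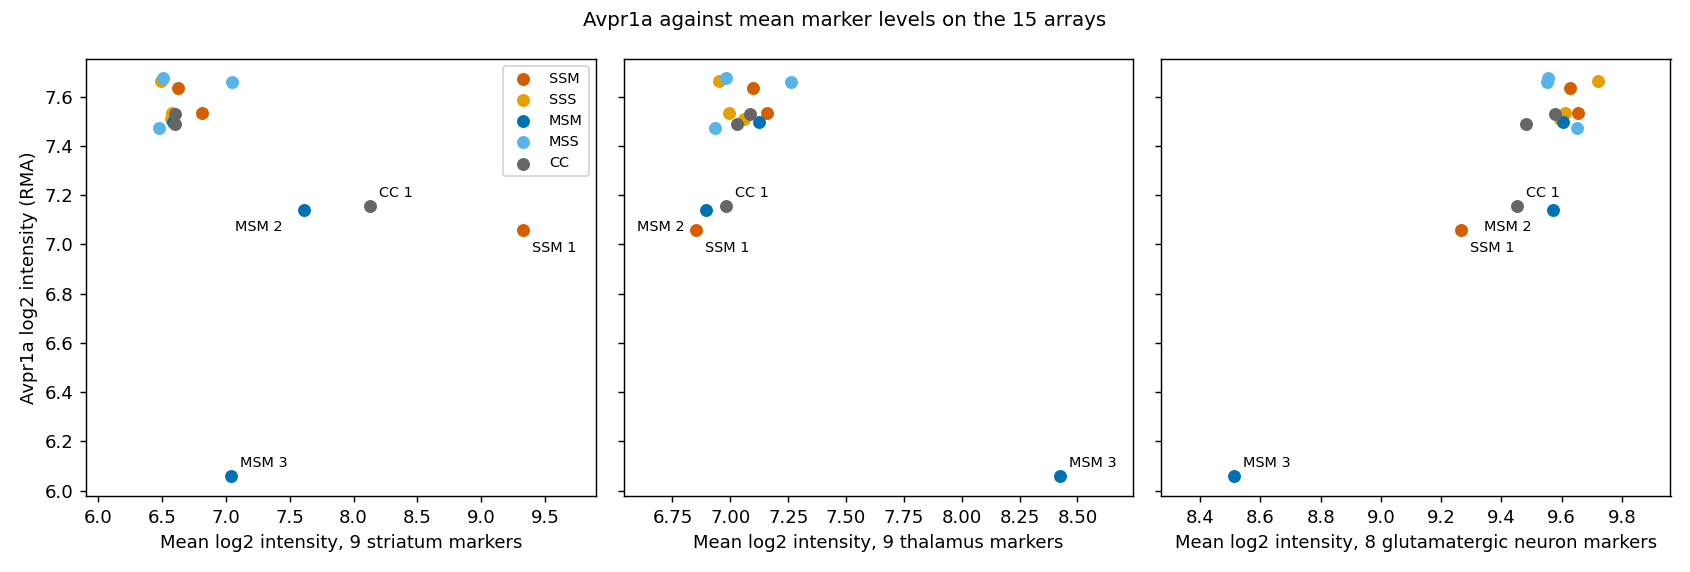
Avpr1a log2 intensity (vertical) against the mean log2 intensity of 9 striatum, 9 thalamus and 8 glutamatergic neuron markers (horizontal) on the 15 arrays, coloured by group. SSM replicate 1, CC replicate 1 and MSM replicate 2 stand to the right in the striatum panel, MSM replicate 3 stands to the right in the thalamus panel, and the other 11 arrays lie between 7.47 and 7.67 in Avpr1a.

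Across the 15 arrays Avpr1a followed the glutamatergic neuron mean (Pearson r = 0.94, Spearman rho = 0.55), and without SSM replicate 1 and MSM replicate 3 r was 0.49. With the striatum mean r was -0.42 over 15 arrays and -0.81 over those 13. With the thalamus mean r was -0.76 over 15 arrays and 0.46 over the 13. The oligodendrocyte mean gave -0.78 and -0.67, the hypothalamus mean -0.79 and -0.52, and the septum mean -0.55 and -0.05, over the same array sets. Over 15 arrays the interneuron, astrocyte, choroid plexus and endothelial means gave r of -0.64, -0.42, -0.33 and 0.21. Over the 13 they gave -0.28, 0.13, -0.17 and 0.24, so the astrocyte value changed sign. These values describe only the arrays at hand, and MSM replicate 3 weighs heavily in those over 15 arrays. Of the 13 arrays, CC replicate 1 and MSM replicate 2 had the highest striatum means (8.13 and 7.61). They also had the lowest Avpr1a (7.16 and 7.14), and the r of -0.81 was not recomputed without them. Among 9681 genes of above-median level, the 5 most like Avpr1a over the 15 arrays were Tnfaip8l3 (r = 0.97), Slit3 (0.97), Sh3rf1 (0.96), Islr2 (0.96) and Neurod6 (0.96). Slit3 encodes a secreted axon guidance protein, and Neurod6 is a transcription factor of cortical and hippocampal pyramidal neurons. Slit3 was 7.62 in MSM replicate 3 and 8.22 to 8.75 in the other 14 arrays. Neurod6 was 7.36 in that array and 8.69 to 9.62 in the others. Without MSM replicate 3 r was 0.80 to 0.87 for the 5 genes, and with each group's mean taken off Slit3 ranked 1 among the 9681. The genes that ran most against Avpr1a, listed after their values were seen, were Pcdh7 (r = -0.93), Mgat5 (-0.93), Vamp1 (-0.93), Sfrp2 (-0.93) and Rgs6 (-0.93). Pcdh7, a protocadherin gene, was 8.85 in MSM replicate 3 and 7.73 to 8.43 elsewhere.

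**Figure D3:**
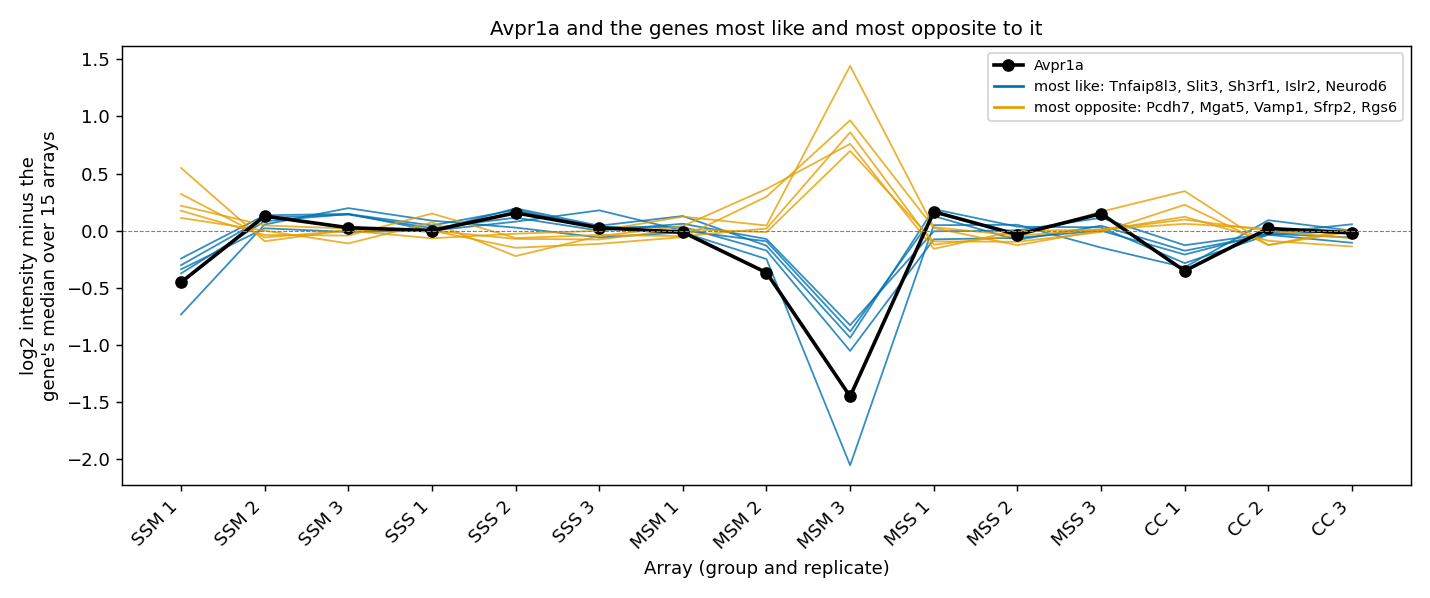
Log2 intensity minus the gene's own median over 15 arrays for Avpr1a (black), the 5 genes most like it (blue) and the 5 most opposite (orange), by array; lines only join values of a gene. In MSM replicate 3 the blue lines drop and the orange lines peak, and smaller deviations of the same sign appear in SSM replicate 1.

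Oxtr encodes the oxytocin receptor. It was 6.09, 6.08 and 6.36 in SSM replicates 1 to 3, 6.04, 5.93 and 6.04 in SSS, 6.02, 5.96 and 6.03 in MSM, 5.93, 6.02 and 5.90 in MSS, and 6.12, 5.77 and 6.03 in CC. Each SSM array was above each SSS, MSM and MSS array, but SSM and CC overlapped because CC replicate 1 was at 6.12. Group means were 6.17 ± 0.16 in SSM, 6.00 ± 0.065 in SSS, 6.00 ± 0.035 in MSM, 5.95 ± 0.060 in MSS and 5.97 ± 0.18 in CC (SD, n = 3 each). The other 4 groups overlapped one another. The arrays of 12.9% of all genes did not overlap between SSM and SSS, 14.1% between SSM and MSM and 17.7% between SSM and MSS.

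Oxtr differed by 0.20 between SSM and CC (SE 0.090, 95% interval 0.01 to 0.39, unadjusted p = 0.0421, limma adjusted p = 0.552). SSM minus SSS was 0.17 (SE 0.090, adjusted p = 0.568) and SSM minus MSM was 0.17 (SE 0.090, adjusted p = 0.395). SSM replicate 1 minus SSS replicate 3, the only arrays of these groups that share a number after SS, was 0.05. Averaged over stress, morphine minus saline was 0.11 (SE 0.064), and averaged over drug, severe minus mild stress was 0.11 (SE 0.064). The limma adjusted p was 0.671 for the morphine average and 0.504 for the severity average. The exact permutation tests, two-sided, gave p = 0.030 for each average (0.225 after adjustment over 15 tests).

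SSM replicate 3, which had the highest Oxtr, had a higher signal in general. Its median over all probe sets was 5.60, against 5.41 to 5.51 in the other 14 arrays, and its genes lay a median of 0.15 above their means over all arrays. Without that array Oxtr differed by 0.11 between SSM and CC (SE 0.085, adjusted p = 0.882) and by 0.08 between SSM and SSS (SE 0.085, adjusted p = 0.857). After quantile normalization of the deposited table Oxtr was 6.12, 6.13 and 6.23 in SSM, so that each SSM array lay above the other 12 arrays, of which CC replicate 1 was the highest at 6.10. Under that scaling the arrays of 13% of all genes did not overlap between SSM and CC, 13% between SSM and SSS, 17.3% between SSM and MSM and 19.4% between SSM and MSS. The difference between SSM and CC was then 0.18 (SE 0.073, adjusted p = 0.621). Severe minus mild stress was 0.14 after centring each array on its median (SE 0.053, adjusted p = 0.150), the smallest adjusted p of Oxtr under any setting. Over 15 arrays Oxtr had r = 0.22 with the striatum mean, 0.41 with the CA2 mean and 0.47 with the interneuron mean. The septum and hypothalamus means gave 0.40 and 0.36, so these values were not particular to CA2 or interneuron genes. SSM replicate 3 also ranked 2 of 15 in the CA2 mean and 4 in the interneuron mean. The genes most like Oxtr were Rac1 (r = 0.88), Nceh1 (0.86), Stk38l (0.86), Rrp8 (0.84) and Mcat (0.83). All 5 were highest in SSM replicate 3: Rac1, a small GTPase of the actin cytoskeleton, was 10.46 there and 10.23 to 10.37 in the other 14 arrays, and Rrp8 was 8.13 there and 7.74 to 7.87 elsewhere. Without that array r was 0.60 to 0.76 for the 5 genes, and over all 15 arrays Spearman's rho was 0.81 for Rac1 and 0.32 for Rrp8.

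Avpr1b encodes the V1b receptor of CA2 neurons and of pituitary corticotrophs. Its level was 4.38, 4.51 and 4.49 in SSM, 4.48, 4.58 and 4.48 in SSS, 4.43, 4.48 and 4.51 in MSM, 4.33, 4.51 and 4.65 in MSS, and 4.48, 4.43 and 4.45 in CC. SSS replicates 1 and 3, MSM replicate 2 and CC replicate 1 shared the value 4.48224, which was also the median over the 15 arrays. Why they did was not tested, and the SDs and intervals treat such values as separate measurements. The lowest and the highest array both belonged to MSS, and the groups overlapped in each of the 10 pairs. Group means were 4.46 ± 0.073 in SSM, 4.51 ± 0.054 in SSS, 4.47 ± 0.037 in MSM, 4.50 ± 0.16 in MSS and 4.46 ± 0.024 in CC (SD, n = 3 each). The 8 comparisons between 2 single groups gave differences from -0.05 to 0.06 (SE 0.073 each). Their 95% intervals reached at most 0.864-fold and 1.16-fold.

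The Avpr1b signal lay within the range of genes that belong to another tissue. The 1190 olfactory and vomeronasal receptor genes of the array, known mainly from the nose, had a median level of 3.90, with the 5th percentile at 3.50 and the 95th at 4.74. The mean of Avpr1b over 15 arrays, 4.48, was at or above 90.1% of them. For Avp (5.58), Oxtr (6.02), Oxt (6.51) and Avpr1a (7.37) that share was 99.2%, 99.7%, 99.7% and 99.9%. Probe sets differ in how brightly they bind, so these shares do not rank the genes by abundance. Avpr2, the remaining receptor of the family, was 4.10 to 4.47, and its mean was at or above 80.6% of those receptor genes (limma adjusted p = 0.858 over the 5 groups).

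**Figure D4:**
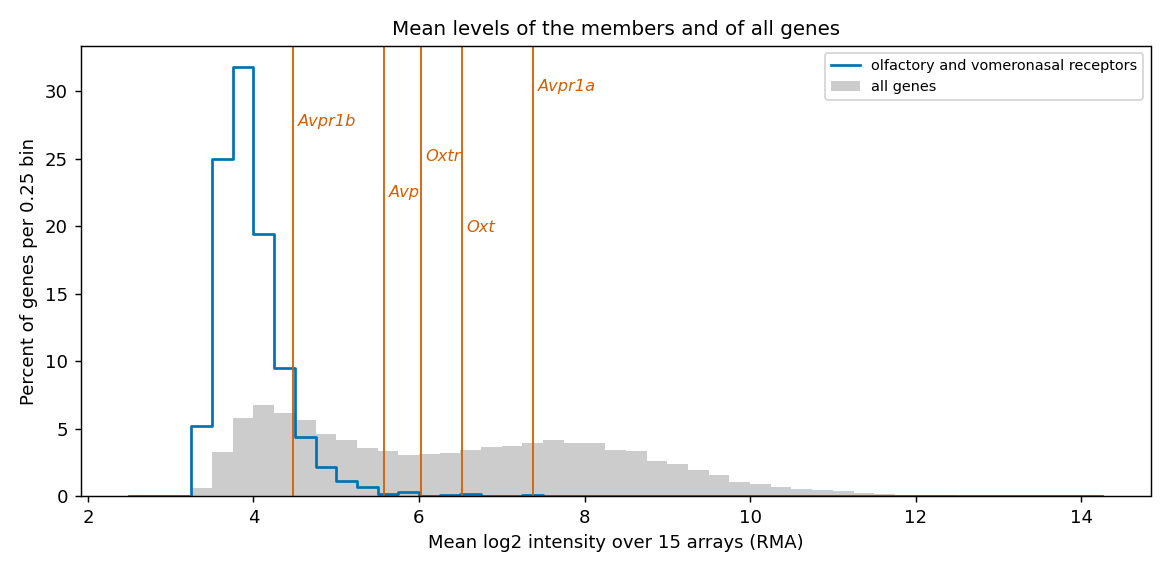
Mean log2 intensity over the 15 arrays (horizontal) of all genes (grey bars) and of 1190 olfactory and vomeronasal receptor genes (blue line), as a percent of each set per bin; orange lines mark the 5 genes. Avpr1b at 4.48 lies within the blue distribution, and the other 4 lie in its upper tail.

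Of the 8 measured genes known from CA2 neurons, 0 passed in any of the 12 comparisons. Their median difference was 0.14 in SSM against CC, against 0.06 over all genes, and it lay between -0.00164 and 0.14 over the 12 comparisons. By the test over the 5 groups the nearest were Necab2, a calcium-binding protein gene (adjusted p = 0.565), the cell adhesion gene Amigo2 (adjusted p = 0.802), the phosphatase gene Ptpn5 (adjusted p = 0.804) and Pcp4, a regulator of calmodulin (adjusted p = 0.849). Necab2 was 9.34, 8.99 and 8.87 in SSM and 8.77, 8.62 and 8.68 in CC. It was highest in SSM replicate 1, as were Ptpn5 and Pcp4, and striatal genes were high in that array. Rgs14, a CA2 gene named here after its values were seen, was 5.83 in MSM replicate 3 and 6.68 to 6.94 in the other 14 arrays. Avpr1b and the CA2 mean had r = -0.23 over the 15 arrays and 0.13 without SSM replicate 1 and MSM replicate 3. The genes most like Avpr1b were Cbx2 (r = 0.81), Rbmxl2 (0.78), Kcnd3os (0.76), C2cd4c (0.75) and Megf6 (0.74).

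Avp encodes the precursor of vasopressin. It was 5.45, 5.49 and 5.68 in SSM, 5.55, 5.59 and 5.66 in SSS, 5.66, 5.38 and 5.69 in MSM, 5.50, 5.67 and 5.62 in MSS, and 5.72, 5.52 and 5.53 in CC. The groups overlapped in each of the 10 pairs, and the whole range over 15 arrays was 0.34. Group means were 5.54 ± 0.12 in SSM, 5.60 ± 0.059 in SSS, 5.58 ± 0.17 in MSM, 5.60 ± 0.087 in MSS and 5.59 ± 0.11 in CC (SD, n = 3 each). The 8 comparisons between 2 single groups gave differences from -0.06 to 0.01 (SE 0.090 each, smallest adjusted p = 0.849), with 95% intervals that reached at most 0.842-fold and 1.15-fold. The 4 treated groups together differed from CC by -0.01 (SE 0.071, adjusted p = 1.00).

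Oxt encodes the precursor of oxytocin. It was 6.38, 6.44 and 6.59 in SSM, 6.38, 6.72 and 6.55 in SSS, 6.50, 6.59 and 6.48 in MSM, 6.36, 6.59 and 6.46 in MSS, and 6.67, 6.62 and 6.39 in CC. SSS held both one of the lowest values and the highest, and the groups overlapped in each of the 10 pairs. Group means were 6.47 ± 0.11 in SSM, 6.55 ± 0.17 in SSS, 6.52 ± 0.056 in MSM, 6.47 ± 0.12 in MSS and 6.56 ± 0.15 in CC (SD, n = 3 each). The 8 comparisons between 2 single groups gave differences from -0.09 to 0.08 (SE 0.096 each, smallest adjusted p = 0.754), with 95% intervals that reached at most 0.816-fold and 1.22-fold. The 4 treated groups together were lower than CC by a difference of -0.06 that did not pass (SE 0.076, adjusted p = 1.00).

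**Figure D5:**
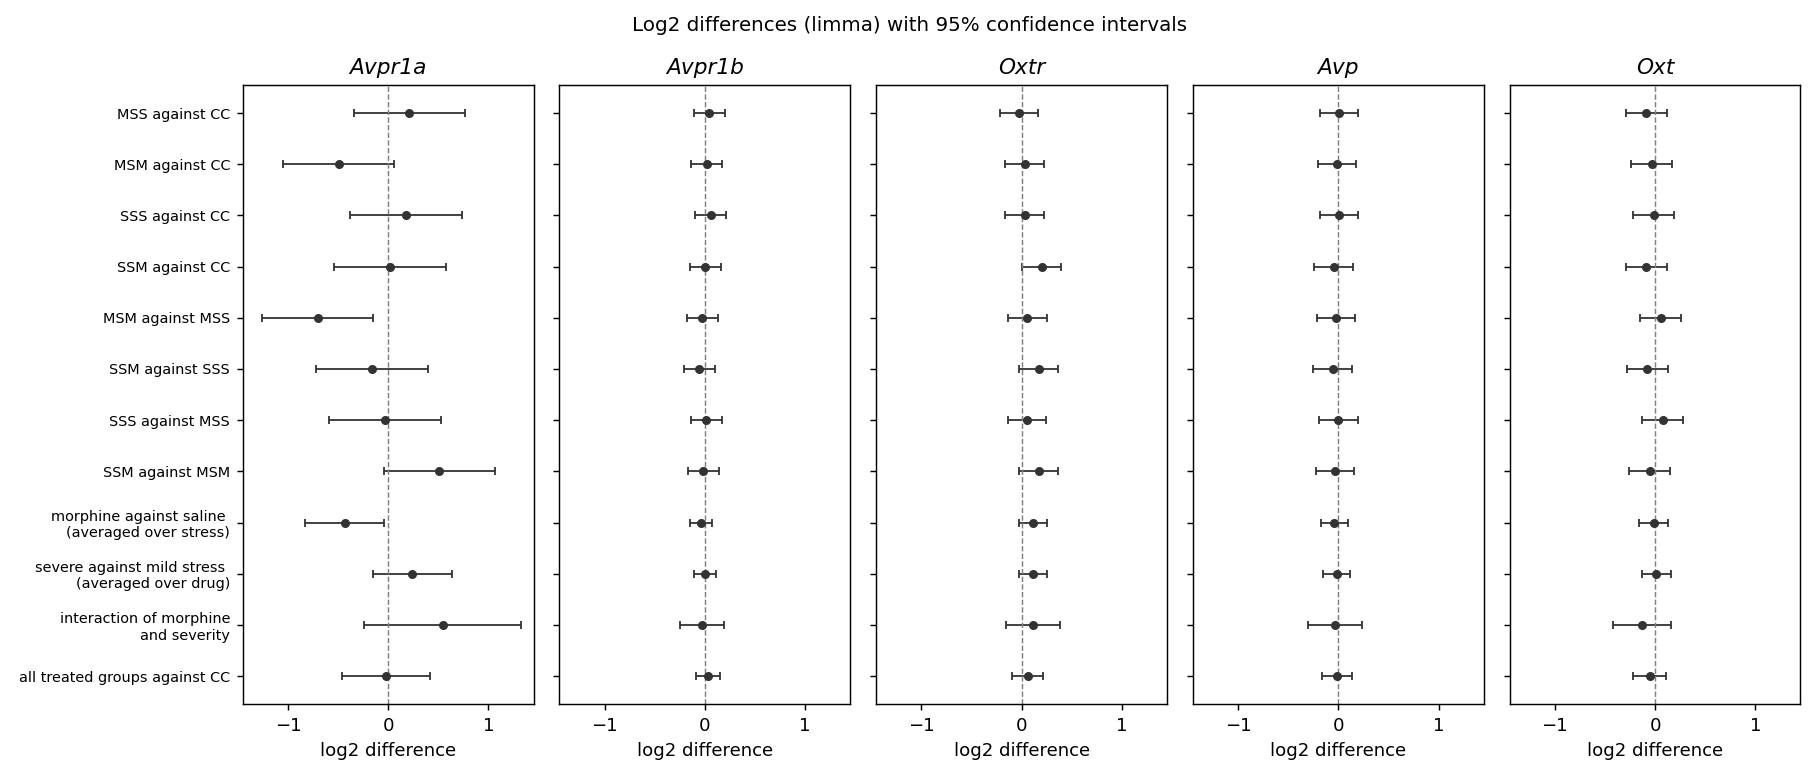
Log2 differences of the 5 genes in the 12 comparisons, with 95% confidence intervals from limma, unadjusted for the number of genes. Intervals of Avpr1a are the widest, and 3 of the 60 exclude 0: Avpr1a in MSM against MSS and in the morphine average, and Oxtr in SSM against CC.

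Genes of the hypothalamus, the region that makes both peptides, had their highest means in MSM replicate 3 and CC replicate 1. Pmch, the precursor of melanin-concentrating hormone of lateral hypothalamic neurons, was 6.62 in MSM replicate 3 and 6.86 in CC replicate 1, against at most 4.73 in the other 13 arrays. Trh, the precursor of thyrotropin-releasing hormone, was highest in MSM replicate 3 at 5.89. Of 11 measured hypothalamus genes 4 peaked in MSM replicate 3, and only 1, Pmch, peaked in CC replicate 1. Pmch therefore weighs heavily in the mean of CC replicate 1. The mean of the 11 ran from 4.89 to 5.10 in SSM, 4.88 to 5.00 in SSS and 4.91 to 5.41 in MSM. It ran from 4.82 to 5.01 in MSS and 4.84 to 5.24 in CC. Avp was highest in these same arrays, at 5.72 in CC replicate 1 and 5.69 in MSM replicate 3, but SSM replicate 3 at 5.68 and MSS replicate 2 at 5.67 were close behind. Over 15 arrays the hypothalamus mean had r = 0.49 with Avp and 0.28 with Oxt. Without SSM replicate 1 and MSM replicate 3 r was 0.47 with Avp and 0.55 with Oxt. Avp was not tied to hypothalamus genes in particular. Its r with the astrocyte mean was 0.60 over 15 arrays and 0.54 without those arrays, and with the septum mean 0.37 and 0.56. The part of the hypothalamus in the level of either peptide gene was not tested. Among the 6 listed genes of hypothalamic and neurosecretory neuron development, such as the transcription factor genes Otp and Sim1, 0 passed in any comparison. Fezf1 came nearest (adjusted p = 0.733 in the test over the 5 groups), followed by Arnt2 (0.884), Sim1 (0.891) and Pou3f2 (0.891). Of the 6 genes 4, Fezf1 (5.52) among them, peaked in SSM replicate 3, the array with a higher signal in general.

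Among the 10 pairs of the 5 genes r over the 15 arrays ran from -0.16 to 0.40. It was 0.38 between Avp and Oxt, -0.16 between Avp and Avpr1a, 0.36 between Avp and Avpr1b, 0.35 between Avp and Oxtr, and -0.02 between Oxt and Oxtr. With each group's mean taken off, r between Avp and Oxtr was 0.65, the highest of the 10 pairs. Both genes were highest within SSM in replicate 3 (Avp 5.68, Oxtr 6.36), the array with a higher signal in general. The part of that array in this r was not tested. The genes most like Avp were Gpt2 (r = 0.77), Nkd1 (0.76), Nr2f6 (0.73), Fads2 (0.73) and Tmem63a (0.73). Those most like Oxt were Hmgn1 (0.83), Rn7sk (0.78), Aurkc (0.75), Pcyt2 (0.74) and Tnfsf11 (0.74). These values were picked as the highest among 9681 genes and describe only these arrays.

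Genes that process the precursors and genes of the signalling chain below the receptors also had no member past the threshold. Of the 7 measured genes of peptide processing and release, 0 passed in the 12 comparisons, and the list median lay between -0.03 and 0.09, while the median of all genes lay between -0.00237 and 0.06. Scg5, a chaperone of the prohormone convertase PC2, came nearest (adjusted p = 0.648 in the test over the 5 groups), and it was highest in SSM replicate 1 at 9.96 and in MSM replicate 3 at 9.83. Pam, which amidates the end of both peptides, followed (adjusted p = 0.790), ahead of the granule protein gene Chga (0.797) and the carboxypeptidase gene Cpe (0.850). Of 16 measured Gq signalling genes, 0 passed, with list medians from -0.04 to 0.09. Rgs4, an inhibitor of Gq signalling, was 10.18, 9.60 and 9.79 in SSM and 9.54, 9.60 and 9.55 in CC (adjusted p = 0.722 over the 5 groups). Itpr2 (0.766), a calcium channel of internal stores, Rgs2 (0.781), another inhibitor of Gq, and the phospholipase C gene Plcb4 (0.802) came next. In MSM replicate 3, Plcb4 and Itpr2 were at their highest, at 8.61 and 7.64, while 8 of the 16 genes, Rgs4 among them, were at their lowest, and the list mean ranked 14 of 15. In SSM replicate 1, 3 of the 16 were at their highest, Rgs2 (8.49) and Rgs4 (10.18) among them, and 0 at their lowest. In SSM replicate 3, the array with a higher signal in general, 5 of the 16 were at their highest and 0 at their lowest.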

How the data were processed

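The deposited table holds log2 intensities that the authors made with RMA, per the submitters' processing notes. RMA corrects background, quantile normalizes arrays and summarises probes; the software is not stated there. All 15 columns matched a sample, and groups come from the source labels. Of 35557 probe sets, 21789 carry 1 gene symbol, 1621 several, and 12147 are unnamed here. The brightest per symbol left 19938 genes, with no filter on dim ones. Fits used limma 3.58.1 (R 4.3.3) on all 15 arrays (10 residual and 4.61 prior degrees of freedom), two-sided, with Benjamini-Hochberg adjustment over all genes and a threshold of 0.05. Intervals are 95% and unadjusted. The fit was tested on simulated data. The genes and the 16 lists (141 of 154 genes measured) were chosen with earlier results of these data known. The rule named the 5 genes, the 5 genes of highest r with each, up to 4 genes per list by F-test p, and markers of neighbouring tissue. Alternatives changed the scaling, the filter, the eBayes settings, the groups fitted and the arrays left out, and took the number after SS in the titles as a block. Replicate numbers follow accession order.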

Additional observations from a re-analysis of the deposited data

How the results depend on the processing

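None of the 5 genes passed the threshold under any alternative run: of 1666 recomputed values 0 passed, and 134 changed sign while not past it. The smallest adjusted p was 0.178 for Avpr1a (SSM against MSM without MSM replicate 1), 0.150 for Oxtr (severity, median centring), 0.504 for Avp, 0.641 for Avpr1b and 0.665 for Oxt. With an array left out, Avpr1a in MSM against MSS ranged from -1.003 (without MSM replicate 1) to -0.28 (without MSM replicate 3). Oxtr in SSM against CC ranged from 0.10 (without CC replicate 2) to 0.27 (without CC replicate 1). The SS number as a fixed block leaves SSM minus SSS to 1 array against 1 (SSM replicate 1 and SSS replicate 3): -0.48 for Avpr1a (SE 0.45) and 0.05 for Oxtr (SE 0.16). Over all genes the severity average had 2 calls, and 14 with quantile normalization, 32 with median centring, 18 with a trended and robust prior and 17 without SSS replicate 3. SSM against SSS had 0, and 40 with that block, from the same single pair. SSM against MSM had 0, and 8 without SSS replicate 1. The filter on dim genes left no value for Avpr1b, Oxtr and Avp. Leaving out the 4 arrays with the highest striatum or thalamus genes, or 2 arrays after quantile normalization, was chosen after seeing the data. No paired analysis was possible because the labels give no replicate numbers, and the SS number ties only 1 SSM array to 1 SSS array and is the same in all mild-stress arrays.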
